A study of Mus musculus with 20 samples.

Results

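The genes described here encode the matrix metalloproteinases (MMPs), the ADAM and ADAMTS metalloproteinases and the tissue inhibitors of metalloproteinases (TIMPs). They were chosen by symbol alone, as every row of the expression table named Mmp, Adam, Adamts or Timp followed by a number, with a trailing letter allowed for Mmp and Adam. This gave 79 of 23402 rows, namely 23 MMPs, 33 ADAMs, 19 ADAMTS genes and 4 TIMPs. RNA was sequenced from tumours grown beneath the skin from MC38 cells, which derive from a mouse adenocarcinoma of the colon. The 10 libraries called Control came from tumours given vehicle, and the 10 called P.T.ATBx from tumours treated with ATBx applied around the tumour. The labels name no agent, dose, schedule, mouse strain, sex or age, and every group carried the same tumour line. They also leave unsaid whether the libraries came from separate animals. The p-values therefore weigh group differences only against the spread between these libraries, part of which may be technical.

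MMPs are zinc-dependent proteases that cut collagens, proteoglycans, growth factors and other proteases outside the cell, and most are made as inactive precursors. Some are secreted and others are held at the cell surface, where membrane-type enzymes such as Mmp14 activate the precursor of Mmp2. ADAMs are membrane proteins, many of which release the outer part of other membrane proteins by cutting them close to the membrane. ADAMTS enzymes are secreted and act on proteoglycans, procollagens and other matrix proteins. TIMPs bind the active site of these enzymes and block it. In solid tumours many of the MMPs are made by fibroblasts and myeloid cells as well as by the tumour cells.

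Expression was given in FPKM, which corrects for the length of the gene and the size of the library, so levels can be compared between genes on a per-length scale. Read totals are not known. The spacing of low values gave a relative depth from 0.809 to 1.28 across libraries. Rpph1 and Rmrp, the RNA subunits of the ribonucleases P and MRP, took between 7.75% and 20.5% of the summed FPKM, with the highest share in Control 1. Summed fibroblast markers ran from 1957 to 2932 FPKM in Control and from 1915 to 3232 FPKM in P.T.ATBx, and summed macrophage markers from 1242 to 1766 FPKM and from 1099 to 1845 FPKM. Of 46 tested marker genes for 9 cell types, 0 passed the limma test described below, and 7 had an unadjusted p under 0.05 (2 higher and 5 lower). Among all tested rows, 13.6% were at that level in either direction. The fibroblast marker Postn was listed at 0 in all 20 libraries. Epithelial markers (Krt8, Krt18, Krt19, Epcam and Cdh1) were present in every library, at a summed 4.06 to 178 FPKM in Control and 11.9 to 52.9 FPKM in P.T.ATBx. Of all 20 libraries, Control 8 had the lowest and Control 3 the highest sum, both for these and for adipocyte markers. Which cells gave the epithelial markers was not tested. By the sums of marker genes, 4 libraries stood apart: Control 3 for adipocyte markers, Control 10 and P.T.ATBx 6 for skeletal muscle markers, and P.T.ATBx 9 for keratinocyte markers. In bulk tissue, fewer cells of a type and less RNA per cell cannot be told apart.

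Of the 79 genes, 39 had a mean of at least 0.5 FPKM over all 20 libraries and were tested: 14 MMPs, 10 ADAMs, 12 ADAMTS genes and 3 TIMPs. The lowest of these was Adamts8 at a mean of 0.543 FPKM, and the highest of the 40 genes left out was Adam4 at 0.367 FPKM. Levels were uneven, with 21 genes at a mean above 10 FPKM. Mmp14, Mmp2, Timp2 and Timp1 alone made up 56.3% to 63.0% of the summed FPKM of all 79 genes in the Control libraries and 58.0% to 62.2% in the P.T.ATBx libraries.

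**Figure D1:**
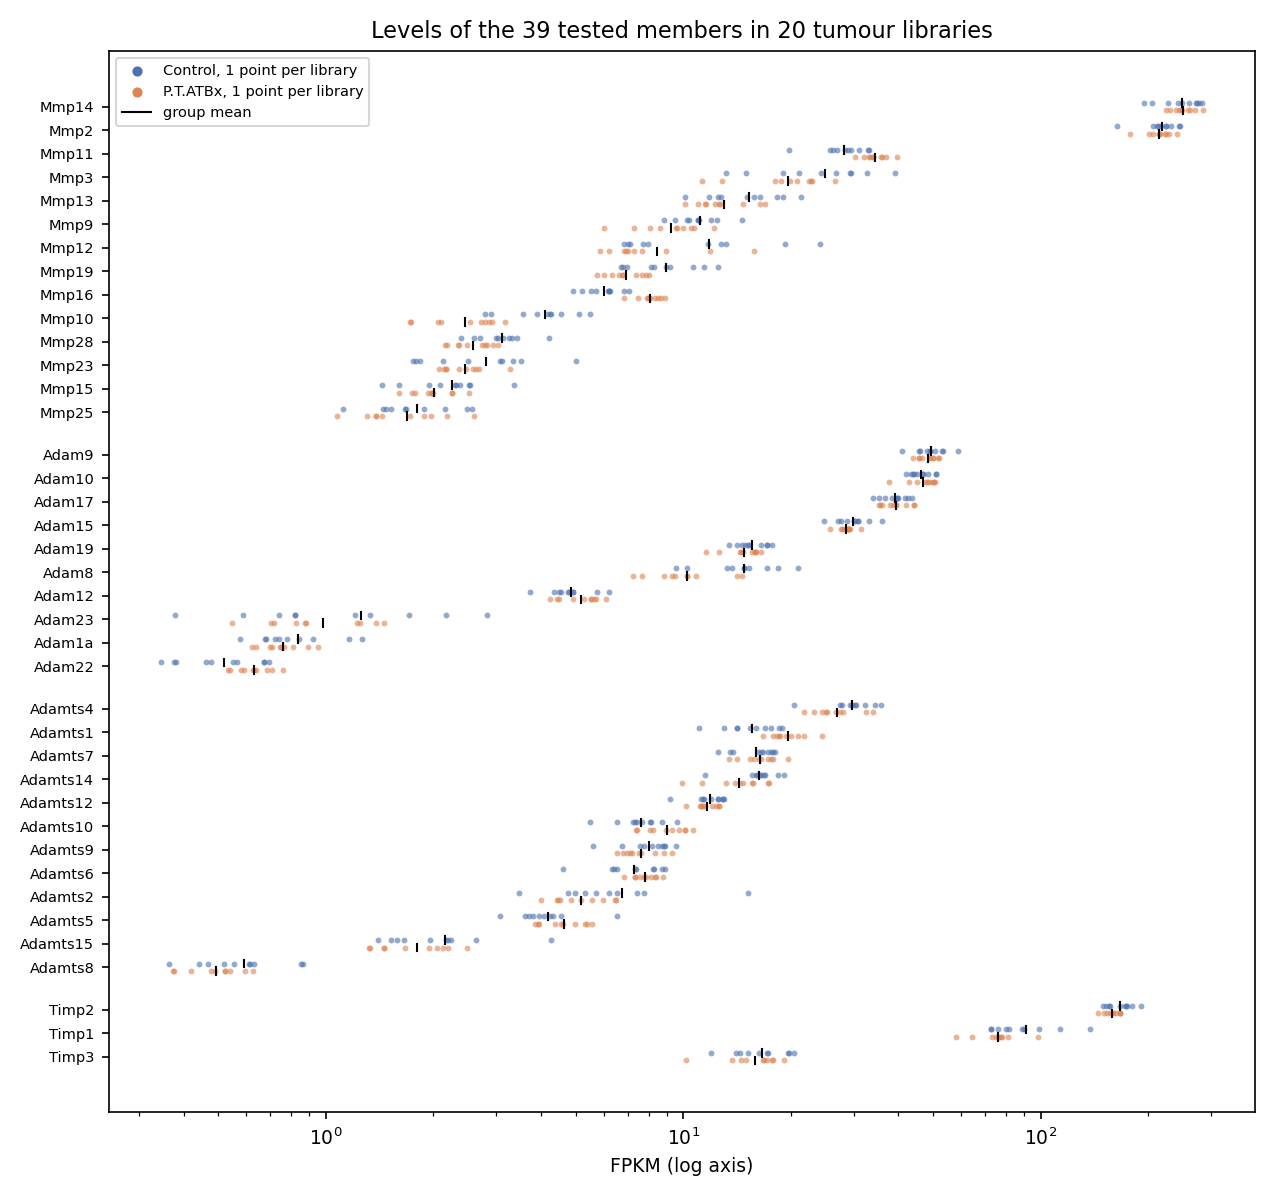
FPKM of each tested protease or inhibitor gene in every library, on a log10 axis, grouped by family, with 10 Control and 10 P.T.ATBx libraries as points and group means as ticks. Mmp14, Mmp2 and Timp2 lie highest in both groups, and for every gene the points of the groups overlap.

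The comparison of P.T.ATBx with Control asked how the RNA of these proteases and their inhibitors differed after the treatment around the tumour. Mmp16, a membrane-type MMP, was higher in P.T.ATBx, and Mmp10, a secreted stromelysin, was lower. The other 37 tested genes did not pass. Tests used log2(FPKM + 1) with limma, two-sided, with Benjamini-Hochberg adjustment over all 12788 tested rows and a threshold of 0.05. Among the protease and inhibitor genes 1 of 39 passed as higher and 1 as lower, beside 0.461% of all tested rows higher (59) and 0.383% lower (49), or 0.845% in either direction. With values rescaled to 1 sum per library (TPM scale), the count over all rows was 20 higher and 29 lower. At an unadjusted p under 0.05 there were 4 higher (Mmp16, Mmp11, Adamts1 and Adamts10), beside 7.51% of all rows. There were 6 lower (Mmp10, Adam8, Mmp19, Mmp28, Mmp9 and Timp1), beside 6.08% of all rows, and 13.6% of all rows were at this level in either direction.

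Fold changes below compare P.T.ATBx with Control as differences in log2(FPKM + 1), so changes in weakly expressed genes come out smaller than they are. Their median over the 39 genes was −0.06, beside 0.00 over all tested rows, and the median absolute change was 0.11 beside 0.05. The fold change was below 0 for 27 of the 39 genes, and for 48.5% of all rows. The Control median was exceeded in all 10 P.T.ATBx libraries by Mmp16, Mmp11, Adamts1 and Adam22, and in none of the 10 by Mmp10, Adam8, Mmp19, Mmp28 and Timp2. Among all rows, 6.37% had all 10 P.T.ATBx libraries on 1 side. The groups were fully apart in 0 of the 39 genes, beside 0.133% of all rows. These counts describe the list, whose genes are few and not independent.

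**Figure D2:**
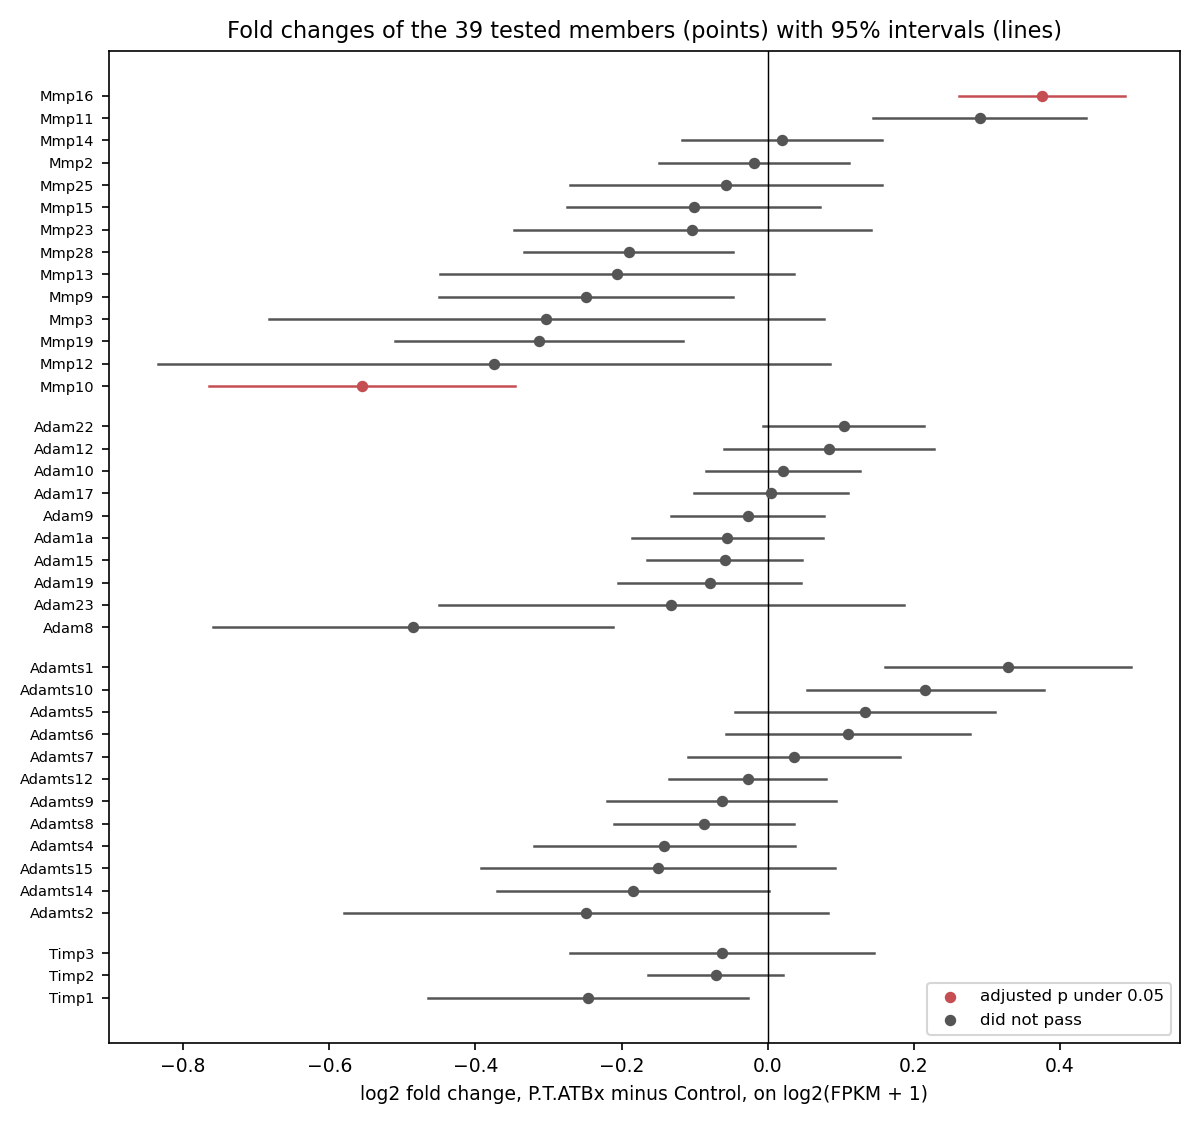
Log2 fold change of each of the 39 tested genes, the difference in log2(FPKM + 1) between P.T.ATBx and Control, as points with 95% limma intervals as lines, by family. Mmp16 at 0.38 and Mmp10 at −0.56 are the genes past the adjusted threshold, and 27 points lie below 0.

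Among the stromelysins, which degrade a broad range of matrix proteins and activate other MMP precursors, Mmp10 was the gene that fell. Mmp10 (Entrez 17384, chr9:7502342-7510242, GRCm38) had 2.79, 4.20 and 5.50 FPKM as the lowest, median and highest Control values, and 1.72, 2.62 and 3.17 FPKM in P.T.ATBx. Control 3 and Control 8 were the Control libraries that reached into the P.T.ATBx range: the other 8 lay above the highest P.T.ATBx library, and 6 P.T.ATBx libraries lay below the lowest Control. The group means were 4.10 ± 0.86 and 2.46 ± 0.52 FPKM (SD, n = 10 each), a 1.67-fold higher mean in Control. The log2 fold change was −0.56 with a standard error of 0.10 and a limma adjusted p of 0.0061. Without the 4 libraries that stood apart it was −0.56 with an adjusted p of 0.019. The summed epithelial markers reached 178 FPKM in Control and 52.9 FPKM in P.T.ATBx, with medians of 37.5 and 22.7 FPKM. The summed neutrophil markers reached 88.4 and 26.8 FPKM, with medians of 19.3 and 18.5 FPKM. The part of these markers in the Mmp10 value was not tested.

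Mmp3 (stromelysin-1) ran from 13.2 through a median of 25.5 to 39.1 FPKM in Control and from 11.3 through 20.4 to 26.7 FPKM in P.T.ATBx. The ranges overlapped widely, although 9 P.T.ATBx libraries were under the Control median. Its log2 fold change was −0.30 with a 95% interval from −0.68 to 0.08 (limma adjusted p = 0.499). Mmp11, or stromelysin-3, is a stromal enzyme that is activated inside the cell by furin and is weak on most matrix proteins. Its values were 19.7, 28.6 and 33.2 FPKM in Control and 30.3, 34.0 and 39.6 FPKM in P.T.ATBx. Control 3 was the lowest Control library, and 7 P.T.ATBx libraries lay above the highest Control. The log2 fold change of Mmp11 was 0.29 with a standard error of 0.07 and a limma adjusted p of 0.0509, just outside the threshold. It passed when Control 1 (adjusted p = 0.0482), Control 2 (0.0260), Control 3 (0.0357), Control 7 (0.0332), P.T.ATBx 2 (0.0494) or P.T.ATBx 6 (0.0407) was left out. Of all 30 alternative settings Mmp11 passed in 9, with limma adjusted p-values from 0.0154 to 0.146.

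**Figure D3:**
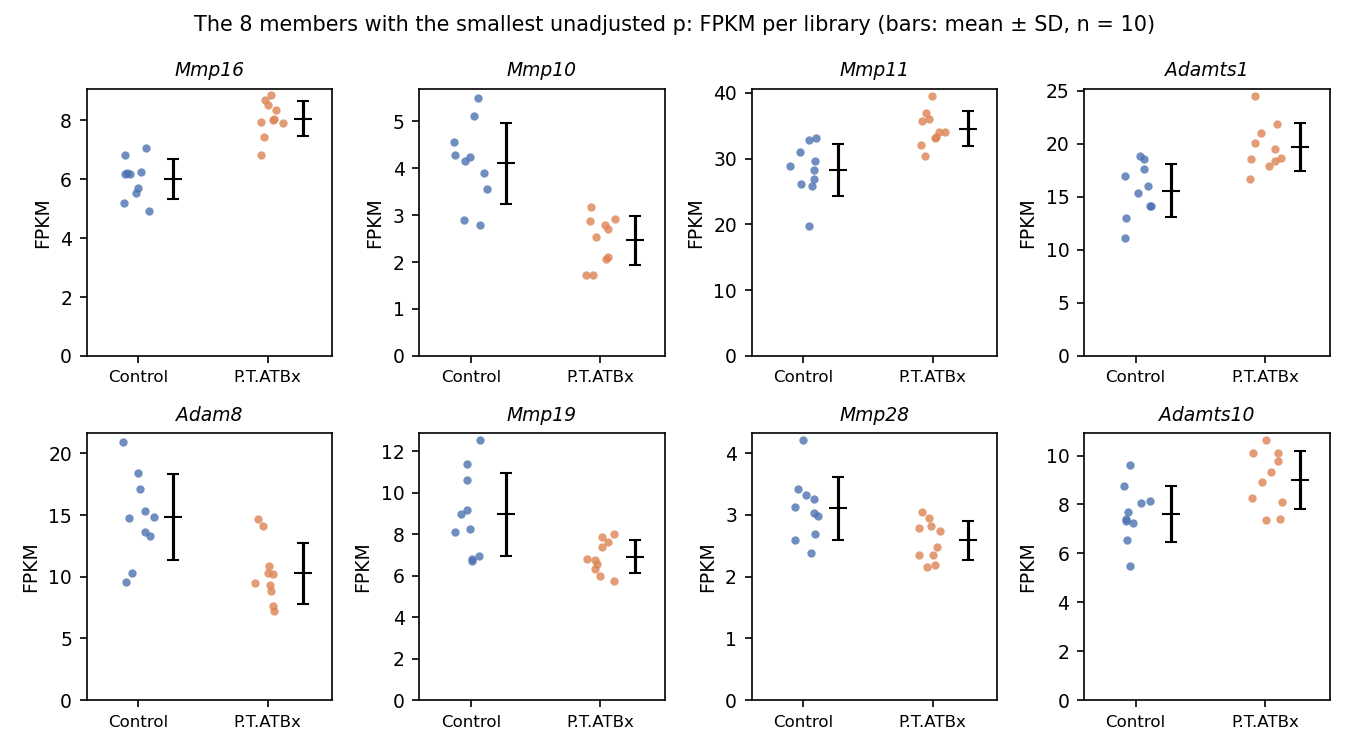
FPKM by library for the 8 genes with the smallest unadjusted p, with each library as a point and the group mean and SD drawn beside the points (n = 10 each), on linear axes from 0. For Mmp16 the P.T.ATBx points start at 6.83 and the Control points end at 7.06, and for Mmp10 the Control points start at 2.79 and the P.T.ATBx points end at 3.17.

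Mmp10 and Mmp3 belong to a run of MMP genes on chromosome 9. In RefSeq GRCm38.p6 it held 10 of them within 427 kb, with no other row of the table between them: Mmp13, Mmp12, Mmp1b, Mmp3, Mmp1a, Mmp10, Mmp8, Mmp27, Mmp20 and Mmp7. Only Mmp13, Mmp12, Mmp3 and Mmp10 passed the filter on low values. All 4 had a negative fold change, with a median of −0.34, and Mmp10 was the gene that passed the test. The other 6 had means from 0.000812 FPKM (Mmp20) to 0.319 FPKM (Mmp8), so neighbouring genes differed widely in level in the same libraries.

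Promoters of this run are known from work in human and mouse cells for a binding motif of AP-1, the Fos and Jun transcription factors, close to the start of transcription. The 120 bases before the RefSeq start are shown for 5 of these genes, because 4 of them were the expressed genes of the run and the fifth, Mmp7, was at 0 in 9 Control and all 10 P.T.ATBx libraries. Each is written 5′ to 3′ on the strand of the gene, the plus strand of GRCm38.p6, with the AP-1 match TGANTCA in capitals. For Mmp12 the second of the RefSeq starts is shown and for Mmp7 the first, each being the start with the match. The other start of each gene had no match.
Mmp10, chr9:7502222-7502341: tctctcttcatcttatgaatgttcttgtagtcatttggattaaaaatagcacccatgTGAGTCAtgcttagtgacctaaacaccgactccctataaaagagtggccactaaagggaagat
Mmp3, chr9:7445702-7445821: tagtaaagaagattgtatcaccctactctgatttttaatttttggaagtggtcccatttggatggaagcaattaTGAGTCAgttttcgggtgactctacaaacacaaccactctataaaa
Mmp13, chr9:7272394-7272513: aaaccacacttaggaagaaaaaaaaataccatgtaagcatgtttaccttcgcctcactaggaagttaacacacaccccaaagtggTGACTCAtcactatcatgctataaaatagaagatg
Mmp12, chr9:7347254-7347373: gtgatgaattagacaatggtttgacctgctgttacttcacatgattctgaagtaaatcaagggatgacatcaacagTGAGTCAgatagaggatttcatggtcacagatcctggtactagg
Mmp7, chr9:7691970-7692089: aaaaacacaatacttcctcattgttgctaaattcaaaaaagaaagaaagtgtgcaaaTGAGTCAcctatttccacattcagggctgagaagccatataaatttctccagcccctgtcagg

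The match began 63 bases before the start in Mmp10, 46 in Mmp3, 35 in Mmp13, 44 in Mmp12 and 63 in Mmp7. Searched on both strands over windows from 250 bases before to 50 bases after each start, TGANTCA was found in 8 of 12 windows of the run. These came from 8 of its 10 genes, all but Mmp8 and Mmp27. The share of all 32851 windows that held it was 7.81%, and of windows of tested genes 5.35%. The letters TATAAA, also on both strands and with no possible overlap with TGANTCA, were in 9 of the 12 windows and in 13.6% of all windows. Of the 79 genes, 49 had a window in the table, and 13 of these 49 held TGANTCA. A match of letters is a description and does not show that a factor was bound.

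**Figure D4:**
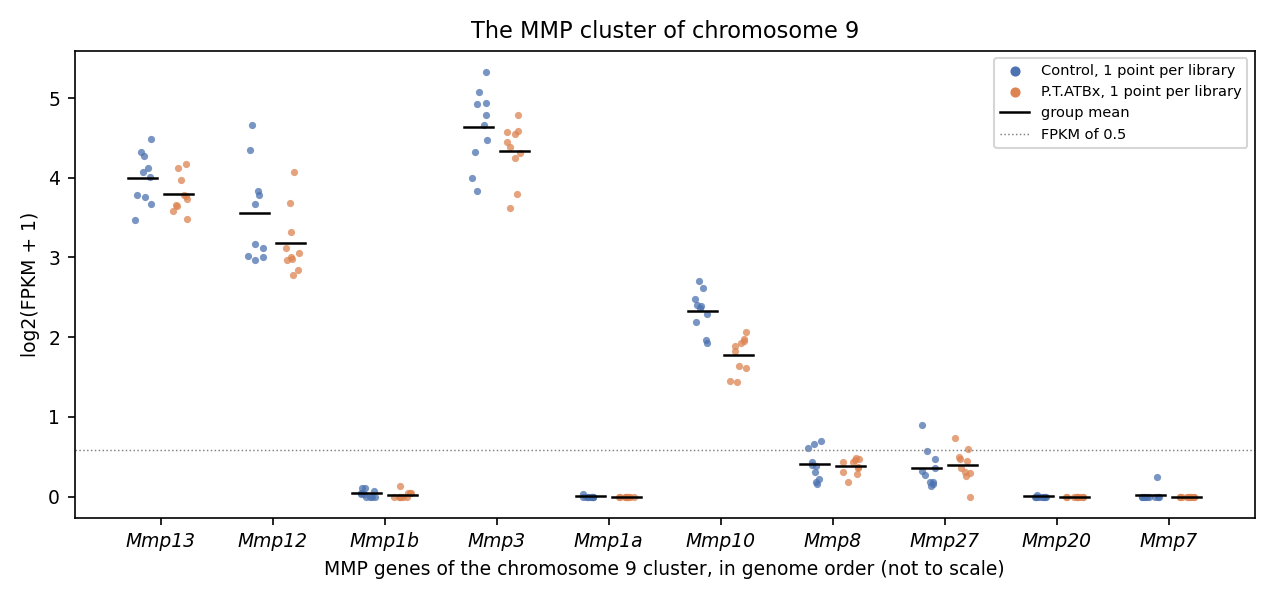
Level of the 10 MMP genes of chromosome 9 as log2(FPKM + 1), in genome order but not to scale, with each library as a point, group means as bars and a dotted line at 0.5 FPKM. Mmp13, Mmp12, Mmp3 and Mmp10 lie above the line and are lower in P.T.ATBx by mean, with Mmp10 the gene past the test.

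Mmp13, the main interstitial collagenase of the mouse, had 10.1, 15.4 and 21.3 FPKM in Control and 10.1, 12.4 and 16.97 FPKM in P.T.ATBx. Its log2 fold change of −0.21 had a 95% interval from −0.45 to 0.04 (limma adjusted p = 0.463), and 3 Control libraries lay above the highest P.T.ATBx library. The neutrophil collagenase Mmp8 stayed under the filter, with Control libraries averaging 0.337 FPKM and P.T.ATBx libraries 0.302 FPKM. Mmp12, the macrophage elastase, varied most among the expressed MMPs: from 6.85 through 9.86 to 24.2 FPKM in Control and from 5.87 through 7.15 to 15.8 FPKM in P.T.ATBx. Its coefficient of variation came to 50.1% among Control and 36.8% among P.T.ATBx libraries. The log2 fold change of −0.37 had an interval from −0.83 to 0.09 (limma adjusted p = 0.482).

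Of the 6 membrane-type MMPs, 4 passed the filter and Mmp16 rose. Mmp16 (MT3-MMP, Entrez 17389, chr4:17853072-18117479, GRCm38) is a transmembrane enzyme that, like Mmp14, can activate the Mmp2 precursor. The Control libraries had 4.92, 6.18 and 7.06 FPKM as lowest, median and highest, and the P.T.ATBx libraries 6.83, 8.04 and 8.87 FPKM. Control 9 and P.T.ATBx 7 alone made the groups overlap: 9 Control libraries lay below the lowest P.T.ATBx library and 9 P.T.ATBx libraries above the highest Control. The means were 6.00 ± 0.68 and 8.06 ± 0.60 FPKM (SD, n = 10 each), a 1.34-fold increase. The log2 fold change was 0.38 with a standard error of 0.05 and a limma adjusted p of 0.000808. On the TPM scale the change was again 0.38, but the adjusted p was 0.0513 and the call was lost. The summed fibroblast markers overlapped between groups, as given above, and Col3a1 alone averaged 1995 FPKM in each group. Of 7 tested fibroblast markers, 2 had a positive and 5 a negative fold change, from −0.35 (Lum) to 0.19 (Pdgfrb), and 0 passed. The part of these markers in the Mmp16 value was not tested. Without Control 3, the library with the lowest Mmp16 and the highest adipocyte markers (1673 FPKM), the change was 0.35 with an adjusted p of 0.00118.

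Mmp14 (MT1-MMP), the major collagen-cutting enzyme at the surface of stromal cells, had the highest FPKM of the 79 genes. It ran from 195 through 254 to 282 FPKM in Control and from 224 through 248 to 284 FPKM in P.T.ATBx. The groups overlapped almost completely, with a log2 fold change of 0.02 and a 95% interval from −0.12 to 0.16 (limma adjusted p = 0.932). Mmp15 and Mmp25 were low, at means of 2.25 and 1.80 FPKM in Control and 2.00 and 1.69 FPKM in P.T.ATBx, with limma adjusted p-values of 0.648 and 0.853. Their log2 fold changes were −0.10 and −0.06, and that of Mmp15 was −0.05 without Control 3, while that of Mmp25 ran from −0.1056 to −0.0163 with 1 library left out (P.T.ATBx 6 and Control 10). Mmp17 and Mmp24 were below the filter.

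The gelatinases Mmp2 and Mmp9 cut denatured collagens and basement membrane. Mmp2, which is made largely by fibroblasts, ran from 164 through 221 to 246 FPKM in Control and from 178 through 215 to 241 FPKM in P.T.ATBx. Its log2 fold change was −0.02 with an interval from −0.15 to 0.11 (limma adjusted p = 0.935). Mmp9, which neutrophils and macrophages supply, ran from 8.87 through 11.0 to 14.6 FPKM and from 5.99 through 9.57 to 12.2 FPKM. For Mmp9, 9 P.T.ATBx libraries were under the Control median, and the log2 fold change was −0.25 with an interval from −0.45 to −0.05, which did not pass after adjustment (limma adjusted p = 0.252). Of the 7 neutrophil markers 5 were tested and 0 passed (1 lower at an unadjusted p under 0.05, Retnlg, with a log2 fold change of −1.04 and a limma adjusted p of 0.0722). The summed level of the neutrophil markers was 11.0 to 88.4 FPKM in Control (median 19.3) and 9.98 to 26.8 FPKM in P.T.ATBx (median 18.5). Across the 10 libraries of a group, Mmp9 and a score of these markers gave r = 0.581 in Control (permutation p = 0.0783, adjusted p = 0.209) and r = 0.747 in P.T.ATBx (permutation p = 0.0134, adjusted p = 0.0803). Spearman's rho was 0.503 (permutation p = 0.146, adjusted p = 0.269) and 0.624 (permutation p = 0.0595, adjusted p = 0.159), and r without the 2 libraries farthest from the Mmp9 median was 0.499 and 0.417. Neither passed after adjustment, and whether the markers account for the difference between groups was not tested.

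Among the other MMPs, Mmp19 and Mmp28 were at lower values in P.T.ATBx without passing the adjusted test. Mmp19, which can cut basement membrane proteins, had 6.70, 8.62 and 12.5 FPKM in Control and 5.73, 6.77 and 8.00 FPKM in P.T.ATBx. Its log2 fold change was −0.31 (limma adjusted p = 0.121), with 7 Control libraries above the highest P.T.ATBx library. Mmp28, or epilysin, had 2.39, 3.08 and 4.22 FPKM against 2.16, 2.61 and 3.04 FPKM, and a log2 fold change of −0.19 (limma adjusted p = 0.203). Mmp23 had a log2 fold change of −0.10 (limma adjusted p = 0.760), which was −0.02 without Control 3. In GENCODE M21 Mmp19 overlaps Tmem198b (a mean of 13.1 FPKM) and Mmp23 overlaps Mib2 (5.64 FPKM). The library kit keeps strand, but whether the counting used it is not given in the sources used here, so reads of such pairs may have been shared.

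The ADAMs fell into those with the zinc-binding motif of an active protease, 20 of 33 genes, and those without it, 13 genes. Of the first group 8 passed the filter and of the second 2, Adam22 and Adam23. Of the 10 tested ADAMs 0 passed the limma test, and 1 (Adam8, lower) had an unadjusted p under 0.05, beside 13.6% of all rows. The main sheddases had intervals close around 0. Adam10, which cuts Notch receptors, had means of 46.3 ± 3.1 and 47.0 ± 4.1 FPKM (SD, n = 10 each). For Adam10 the 95% interval of the log2 fold change ran from −0.08 to 0.13. Adam17, which releases TNF and ligands of the EGF receptor, had means of 39.2 ± 3.1 and 39.3 ± 3.3 FPKM, with an interval from −0.10 to 0.11. Adam9 had 49.4 ± 4.9 and 48.4 ± 2.7 FPKM, with an interval from −0.13 to 0.08. Together with Adam15, chosen after its values were seen, these genes made up a mean of 80.9% of the summed ADAM FPKM in Control libraries and 82.9% in P.T.ATBx libraries.

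Adam8, a protease of myeloid cells, differed from them in spread. Its lowest, median and highest values were 9.56, 14.8 and 20.9 FPKM in Control and 7.25, 9.86 and 14.6 FPKM in P.T.ATBx. All 10 P.T.ATBx libraries were under the Control median, and 5 lay below the lowest Control library. The log2 fold change was −0.49 with a standard error of 0.13 and a limma adjusted p of 0.0812. It passed when Control 1 (adjusted p = 0.0331), Control 2 (0.0442), P.T.ATBx 2 (0.0495) or P.T.ATBx 8 (0.0462) was left out. Without the 4 libraries that stood apart, the change was −0.40 with an adjusted p of 0.285, and on the TPM scale the adjusted p was 0.227. The macrophage markers summed to overlapping levels in the groups. The summed neutrophil markers reached higher in some Control libraries, with medians of 19.3 FPKM in Control and 18.5 FPKM in P.T.ATBx. Of 5 tested neutrophil markers, 4 had a negative and 1 a positive fold change, from −1.04 (Retnlg) to 0.11 (Csf3r), and 0 passed. The part of these markers in the Adam8 value was not tested. Adam12 and Adam19, sheddases found in mesenchymal cells, had log2 fold changes of 0.08 and −0.08 (limma adjusted p = 0.651 and 0.618), which were 0.05 without Control 1 and −0.04 without P.T.ATBx 4. Of the ADAMs without the motif, Adam22 had means of 0.519 and 0.629 FPKM with a log2 fold change of 0.10 (limma adjusted p = 0.398). Adam23 had 1.26 and 0.986 FPKM (limma adjusted p = 0.762) and the widest Control range of the 39 tested genes, 7.48-fold between lowest and highest. Its log2 fold change of −0.13 was −0.04 without Control 3, −0.07 without Control 1 and −0.20 without Control 7.

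Of the 12 tested ADAMTS genes 0 passed the limma test. An unadjusted p under 0.05 was found for 2 (Adamts1 and Adamts10, both higher), beside 13.6% of all rows in either direction. Adamts1, which cuts aggrecan and versican, had 11.1, 15.7 and 18.9 FPKM in Control and 16.7, 19.1 and 24.5 FPKM in P.T.ATBx. Control 1 was the lowest of all 20 libraries, and 5 P.T.ATBx libraries lay above the highest Control. The log2 fold change was 0.33 with a standard error of 0.08 and a limma adjusted p of 0.0584. It passed when Control 1 (adjusted p = 0.0498), Control 2 (0.0292), Control 3 (0.0491), Control 10 (0.0372) or P.T.ATBx 5 (0.0479) was left out. Of all 30 alternative settings Adamts1 passed in 8, with limma adjusted p-values from 0.0181 to 0.254. Adamts4, another aggrecan-cutting enzyme, had a log2 fold change of −0.14 with an interval from −0.32 to 0.04, on means of 29.8 and 26.9 FPKM. Adamts5, the major aggrecanase of mouse cartilage, had means of 4.19 and 4.65 FPKM (limma adjusted p = 0.538).

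The procollagen N-proteinases Adamts2 and Adamts14, which trim fibrillar procollagens, had log2 fold changes of −0.25 and −0.18 (limma adjusted p = 0.533 and 0.374). The value of Adamts2 was moved by Control 3, the highest library at 15.1 FPKM against a Control median of 5.95 FPKM, and was −0.12 without it. Adamts10, a protein linked to fibrillin microfibrils, had 5.49, 7.55 and 9.62 FPKM in Control and 7.38, 9.12 and 10.7 FPKM in P.T.ATBx. Its log2 fold change was 0.22 (limma adjusted p = 0.205), and 4 P.T.ATBx libraries lay above the highest Control. Adamts6, Adamts7 and Adamts12 had log2 fold changes of 0.11, 0.04 and −0.03, with limma adjusted p-values from 0.605 to 0.866. Without Control 3 the value for Adamts6 was 0.05, and without Control 1 those for Adamts7 and Adamts12 were 0.0008 and −0.06.

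Of the 4 TIMPs 3 were tested and 0 passed the limma test. An unadjusted p under 0.05 was found for 1 (Timp1, lower), beside 13.6% of all rows in either direction. Timp2, which both blocks MMPs and takes part in the activation of Mmp2 by Mmp14, had 150, 169 and 191 FPKM in Control and 145, 160 and 167 FPKM in P.T.ATBx. All 10 P.T.ATBx libraries were under the Control median, yet the log2 fold change was small, −0.07 with an interval from −0.16 to 0.02 (limma adjusted p = 0.523). Timp1, the cytokine-inducible inhibitor, had 72.6, 85.1 and 138 FPKM in Control and 58.0, 76.1 and 98.5 FPKM in P.T.ATBx. For Timp1 9 P.T.ATBx libraries were under the Control median, and the log2 fold change was −0.25 with an interval from −0.46 to −0.03 (limma adjusted p = 0.306). Timp3, which is bound to the matrix and inhibits Adam17, had means of 16.6 and 15.9 FPKM (limma adjusted p = 0.836). Timp4 was below the filter, at means of 0.221 and 0.144 FPKM.

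Summed per family, as a description without a test, MMPs came to 588 ± 55 FPKM in Control and 578 ± 37 FPKM in P.T.ATBx (SD, n = 10 each). TIMPs came to 275 ± 27 and 251 ± 14 FPKM. The ratio of summed MMP to summed TIMP FPKM was 2.15 ± 0.19 and 2.31 ± 0.22, with ranges of 1.69 to 2.32 and 1.84 to 2.63 that overlapped. The sums are dominated by Mmp14, Mmp2 and Timp2 and do not measure enzyme activity.

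Below the filter, 30 genes had some signal and 10 were at 0 in every library. The latter were Mmp21 and 9 ADAMs, namely Adam2, Adam6a, Adam7, Adam20, Adam24, Adam26b, Adam29, Adam34 and Adam39, several of them known for roles in the testis and sperm. The remaining ADAMs under the filter were Adam1b, Adam3, Adam4, Adam5, Adam6b, Adam11, Adam18, Adam21, Adam25, Adam26a, Adam28, Adam30, Adam32 and Adam33. The ADAMTS genes under it were Adamts3, Adamts13, Adamts16, Adamts17, Adamts18, Adamts19 and Adamts20. Mmp1a and Mmp1b, copies of interstitial collagenase with similar sequence, had means of 0.00120 and 0.0237 FPKM, and reads of such copies cannot be told apart with certainty. The same limit holds for Adam1a and Adam1b, Adam6a and Adam6b, and Adam26a and Adam26b. Of these, Adam1a passed the filter, at means of 0.835 FPKM in Control and 0.758 FPKM in P.T.ATBx. It had a log2 fold change of −0.06 (limma adjusted p = 0.758). None of the 40 genes under the filter was tested in the comparison.

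Relations were examined within each group of 10 for 12 pairs, 9 of 2 genes and 3 of a gene with a cell type marker score. This gave 24 relations, whose permutation p-values were adjusted by Benjamini-Hochberg. The pairs were chosen by known roles but with earlier results of these data known, and the adjustment does not allow for that choice. Of the 24, 3 passed by Pearson's r. Mmp2 and its activator Mmp14 varied together in Control, with r = 0.887 (permutation p = 2e-05, adjusted p = 0.00048) and Spearman's rho = 0.939 (permutation p = 0.00026, adjusted p = 0.00624). Without the 2 libraries farthest from the Mmp2 median, Control 1 and Control 7, r was 0.896. In P.T.ATBx r was 0.819 (permutation p = 0.00291, adjusted p = 0.0233) and rho was 0.830 (permutation p = 0.00483, adjusted p = 0.0580). There r was 0.552 without the 2 farthest libraries, P.T.ATBx 1 and P.T.ATBx 8. Adamts1 and Adamts4 gave r = 0.840 in Control (permutation p = 0.0021, adjusted p = 0.0233) and rho = 0.806 (permutation p = 0.0073, adjusted p = 0.0584). Without Control 1 and Control 10, the farthest for Adamts1, r was 0.674. On the 8 libraries left, 0 of the 3 relations passed (adjusted permutation p = 0.0679, 0.423 and 0.279), and 8 libraries give less power than 10. For Mmp2 and Mmp14 in Control r did not fall when these libraries were left out. It fell for that pair in P.T.ATBx and for Adamts1 and Adamts4 in Control. In P.T.ATBx Adamts1 and Adamts4 gave r = 0.527 (adjusted permutation p = 0.279), and the difference between the groups was not tested. The labels give no batch, so no within-batch value could be had. Control 1 was the lowest Control library for Mmp2, Mmp14, Adamts1 and Adamts4 alike and had the highest share of Rpph1 and Rmrp. Without Control 1 alone, r was 0.866 for Mmp2 and Mmp14 and 0.673 for Adamts1 and Adamts4. The marker scores gave r = 0.403 and −0.198 for Mmp12 with macrophage markers in Control and P.T.ATBx (adjusted permutation p = 0.462 and 0.660), and Spearman's rho = 0.503 and −0.345 (0.269 and 0.497). For Mmp2 with fibroblast markers r was 0.341 and 0.674 (adjusted permutation p = 0.552 and 0.126) and rho 0.176 and 0.430 (0.799 and 0.348). Without the 2 farthest libraries these r were 0.0193 and 0.0490 for Mmp12 and −0.130 and 0.254 for Mmp2.

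**Figure D5:**
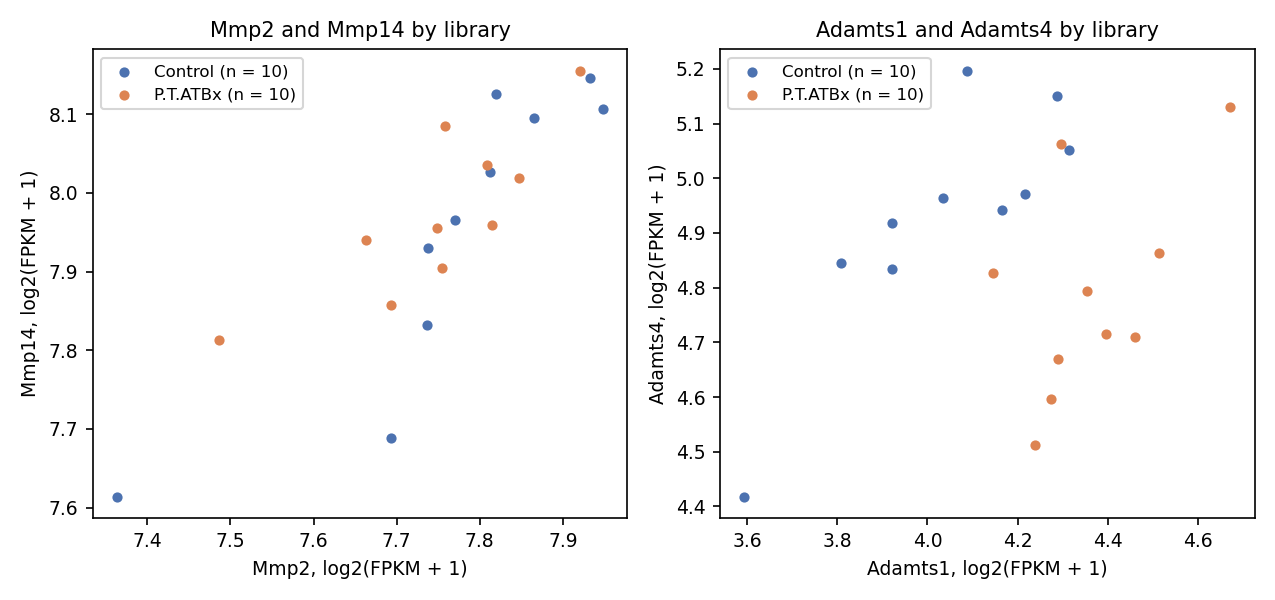
Mmp14 against Mmp2 and Adamts4 against Adamts1, each as log2(FPKM + 1), with each of the 10 Control and 10 P.T.ATBx libraries as a point. Mmp2 and Mmp14 rise together in both groups, and Control 1 is the lowest point on both axes of each panel.

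Genes that act with these enzymes were taken from 4 lists. For comparison, 13.6% of all tested rows had an unadjusted p under 0.05 in either direction, and 0.845% passed. Of 15 tested regulators (of 16 listed), which include the furin-type convertases that activate precursors, 0 passed the limma test and 4 had an unadjusted p under 0.05 (1 higher and 3 lower). Pcsk5, a convertase, had 2.06, 2.84 and 4.54 FPKM in Control and 1.76, 2.11 and 2.82 FPKM in P.T.ATBx, and a log2 fold change of −0.33 (limma adjusted p = 0.119). Tfpi2, a serine protease inhibitor of the matrix, had a log2 fold change of −0.41 (limma adjusted p = 0.168). Furin had −0.09 (limma adjusted p = 0.313). The median over this list was −0.02.

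Of 8 tested related metalloproteinases and ADAMTS-like genes (of 14) 0 passed, with 2 at an unadjusted p under 0.05. These were Adamtsl4, a non-enzymatic relative of the ADAMTS proteins, at a log2 fold change of −0.25 (limma adjusted p = 0.128), and Tll1, a procollagen C-proteinase, at 0.26 (limma adjusted p = 0.188). Adamdec1 had −0.20 (limma adjusted p = 0.462). The list median was −0.08. Of 17 tested membrane proteins known to be shed by ADAMs (of 20) 0 passed, and 3 had an unadjusted p under 0.05, all lower. Tnf, the substrate after which Adam17 was named, had means of 7.97 and 5.76 FPKM and a log2 fold change of −0.38 (limma adjusted p = 0.193). It passed in 1 of 30 alternative settings, without Control 2 (−0.47, adjusted p = 0.0294), and its highest limma adjusted p was 0.337. Its receptor Tnfrsf1a had −0.11 (limma adjusted p = 0.264). The median over these 17 genes was −0.05.

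Of 13 tested matrix substrates (of 18) 1 was lower and 0 were higher, with a list median of −0.09. The gene that fell was Dcn, decorin, a small proteoglycan that binds collagen fibrils. It had 598, 667 and 743 FPKM in Control and 467, 538 and 614 FPKM in P.T.ATBx, so the groups overlapped only slightly. Its means were 672 ± 40 and 543 ± 39 FPKM (SD, n = 10 each), with a log2 fold change of −0.31, a standard error of 0.05 and a limma adjusted p of 0.00125. It passed in all 30 alternatives. Vwf, the blood-clotting protein cut by Adamts13, had −0.37 (limma adjusted p = 0.146), while Adamts13 itself was under the filter at a mean of 0.00735 FPKM. Bgn, biglycan, a relative of decorin, had 0.18 (limma adjusted p = 0.437).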

How the data were processed

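The authors deposited 1 table of FPKM with 23402 rows and a column per library. The build was mm10, per the submitters' processing notes; aligner, counter and annotation: not given in the sources used here. Libraries were total RNA made with a stranded kit, per the labels' protocols. FPKM is not a count, and read depth is unknown. Of low values, 97.6% lay within 0.1 of a whole multiple of a library's smallest step, from which relative depth was estimated.

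The 12788 rows averaging 0.5 FPKM or more were fitted as log2(FPKM + 1) in limma 3.58.1 (R 4.3.3), with robust, trended moderation and group as the only term, after testing on simulated data. Alternatives changed the pseudocount, filter, scaling, moderation, weights, replicate block and libraries. Relations used permutation tests with 100000 resamples. Coordinates and promoters came from RefSeq GRCm38.p6, in which all 79 genes matched. The zinc-binding motif was searched in the longest reading frame of GENCODE M21 transcripts, in place of the planned RefSeq proteins, which were not used here.

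Genes were named by rule: those past the threshold, the 3 with the smallest p and the 2 with the highest mean FPKM in each role group, all TIMPs, 14 preset genes, and the 3 with the smallest p of each list. Others were chosen after their values were seen, and 1 gene that the rule names is not reported here. The members, lists and pairs for the relations were chosen with earlier results of these data known.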

Additional observations from a re-analysis of the deposited data

Results flagged for a closer look

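Within the groups of 10 libraries, 72 sets of values from these genes were tested for a single library far from the rest by Dixon's 95% criterion, and 8 were found. Chance gives about 1 in 20. Of these, 4 were low values in Control 1. Adamts12 was 9.18 FPKM there, with the next library at 11.2 and a Control median of 12.3 FPKM. Adamts14 was 11.5 FPKM, next to 15.6 and a median of 16.4 FPKM. Adamts4 was 20.4 FPKM, next to 27.5 and a median of 30.0 FPKM. Mmp2 was 164 FPKM, next to 206 and a median of 221 FPKM. Control 1 was the lowest Control library for 14 of the 39 tested genes and the highest for 0. It also had the highest share of Rpph1 and Rmrp (20.5%). P.T.ATBx 1, with the highest share of its group (17.2%), was the lowest P.T.ATBx library for 17 of the 39 genes. The part of that share in these values was not tested.

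High values in Control 3 made up 3 more. Adamts2 was 15.1 FPKM there, with the next library at 7.78 and a Control median of 5.95 FPKM. Adamts5 was 6.53 FPKM, next to 4.56 and a median of 4.01 FPKM. Timp4, under the filter on low values, was 1.12 FPKM, next to 0.490 and a median of 0.0449 FPKM. Control 3 was the highest Control library for 11 of the 39 tested genes and the lowest for 7. It had the highest sum of adipocyte markers (1673 FPKM) and of the epithelial markers Krt8, Krt18, Krt19, Epcam and Cdh1 (178 FPKM), whose part was not tested. The last was Mmp23 in P.T.ATBx 10, at 3.27 FPKM with the next library at 2.68 and a median of 2.42 FPKM.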

How the results depend on the processing

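The counts of calls and the fold changes of the named genes were recomputed under 30 alternatives, 20 of which left out 1 library; Adam22 and Adamdec1, lost to a filter at 1 FPKM, had 29. Family sums and single markers were not recomputed. Relations were recomputed by Spearman's rho and with libraries left out. Mmp10 passed in all 30, with log2 fold changes from −0.71 to −0.51, and Mmp16 in 29, from 0.33 to 0.42; Mmp16 was lost on the TPM scale. The number of genes of these families called higher, 1 as reported, was 0 on the TPM scale, 3 with quantile normalization, 3 with array weights, 2 with the replicate block and 2 without the 4 libraries that stood apart. The number called lower, 1, was 2 with array weights. The genes added were Mmp11, Adamts1 and Adam8. Leaving out 1 library gave 1 to 3 higher and 1 to 2 lower. Over all tested rows, 108 calls became 49 on the TPM scale, 306 with array weights, 56 without the libraries that stood apart, and 69 (without P.T.ATBx 4) to 193 (without Control 1) with 1 library left out.

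The labels do not say whether replicate numbers pair the libraries. The correlation of deviations between same-numbered libraries ran from −0.315 to 0.393 (replicate 1), with 5 of 10 above 0.1. Of the 10 Control libraries, 3 correlated best with their own number. These mixed values cannot decide whether the libraries were paired. With the number as a block Adamts1 also passed (adjusted p = 0.0321).

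Of 1019 refits of 34 named genes, 979 kept direction and call, 22 gained the call, 1 lost it and 17 changed sign, the last in genes whose change lay near 0. Adam17 was −0.0114 with array weights and −0.0074 without the libraries that stood apart, and Mmp14 was −0.0218 with array weights. With 1 library left out, Adam17 ran from −0.0177 to 0.0216, Adam9 from −0.0563 to 0.0005, Mmp14 from −0.0182 to 0.0409, Mmp2 from −0.0631 to 0.011 and Timp3 from −0.1093 to 0.0018. Of the relations, 1 passed by Spearman's rho and 0 without the 2 farthest libraries, which leaves 8. For the genes of the 4 lists, alternatives chosen after seeing the data kept Dcn in all 30, from −0.33 to −0.28, and reversed none. The causes of these shifts were not tested. Genes near the filter rest on few reads, and fold changes of a few percent cannot be told from the spread between libraries.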
